A study of Mus musculus with 4 samples.

Results

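The iron handling genes of macrophages were taken as the iron exporter Slc40a1, the ferroxidase Cp, the peptide hormone Hamp, the receptor Tfrc and its ligand Trf, the vesicle transporters Slc11a1 and Slc11a2, the ferritin subunits Fth1 and Ftl1, and the heme-degrading enzyme Hmox1. These 10 genes were chosen by name for their role, and a gene was measured where a probe set of the array carried its symbol alone. Of the 10 genes, 8 were measured so, among 22180 genes in all. Each of the 8 had 1 such probe set. Trf was present on 1 probe set and Ftl1 on 6 probe sets that carry several gene symbols, and both are not analysed here.

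The macrophages came from the peritoneal cavity of wild type 129S6/SvEv (129) and DBA/2J (DBA) mice aged 3 months, injected with 1 ml of 4% thioglycollate, an irritant broth that draws monocytes into the cavity, and sampled 4 days later. All the animals were fed regular chow, and the cells were cultured overnight before RNA was extracted. RNA was pooled by strain and sex from 3 mice per pool according to the labels (the study's methods give another number), so there were 4 pools, named 129 females, 129 males, DBA females and DBA males below. Each pool was hybridised to 1 Affymetrix mouse gene array, and all levels are the authors' log2 values, on which a difference of 1 is a doubling. The sources name no engineered allele and no other treatment for any of these animals. A pool averages its animals, so the spread between pools leaves out most of the spread between single mice.

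Macrophages recycle the iron of aged red cells. Heme from engulfed cells is moved out of the vesicle and opened by heme oxygenase. The freed iron is stored in ferritin or leaves the cell through ferroportin, and ferroxidases load it onto transferrin in plasma. Much of this handling is set after transcription: the iron regulatory proteins bind ferritin, ferroportin and transferrin receptor messages when iron is scarce, and hepcidin removes ferroportin from the membrane, so an RNA level does not give the protein level.

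DBA was compared with 129 with limma, with each strain's female and male pools as its 2 replicates, and p-values were adjusted over all 22180 genes. At an adjusted p under 0.05, 0 of the 8 iron handling genes differed between the strains, where 83 of all genes (0.374%) did. At an unadjusted p under 0.05, Tfrc was higher in DBA, and Hamp, below background in every pool, was lower. These were 2 of 8 genes, beside 11.5% of all genes. In 4 of the 8 genes the pools of the strains did not overlap, as they did not in 44.4% of all genes. Both DBA pools were the higher ones for Tfrc and Hmox1 (23% of all genes) and the lower ones for Slc11a2 and Hamp (21.4% of all genes). The median log2 difference of the 8 genes was 0.18, and that of all genes was 0.00. For the 7 of them with a mean above background, as defined below, it was 0.30, beside 0.05 for all 13378 such genes. At an unadjusted p under 0.05, 1 of these 7 genes, Tfrc, was higher in DBA and 0 were lower, beside 1145 higher and 604 lower of the 13378. The pools did not overlap in 3 of these 7 genes (42.9%), beside 47.4% of the 13378. Of the 13378, both DBA pools were higher in 3961 and lower in 2382. The smallest two-sided p that an exact permutation test of 2 pools against 2 allows is 0.333, so single values were tested only through the fit across all genes.

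**Figure D1:**
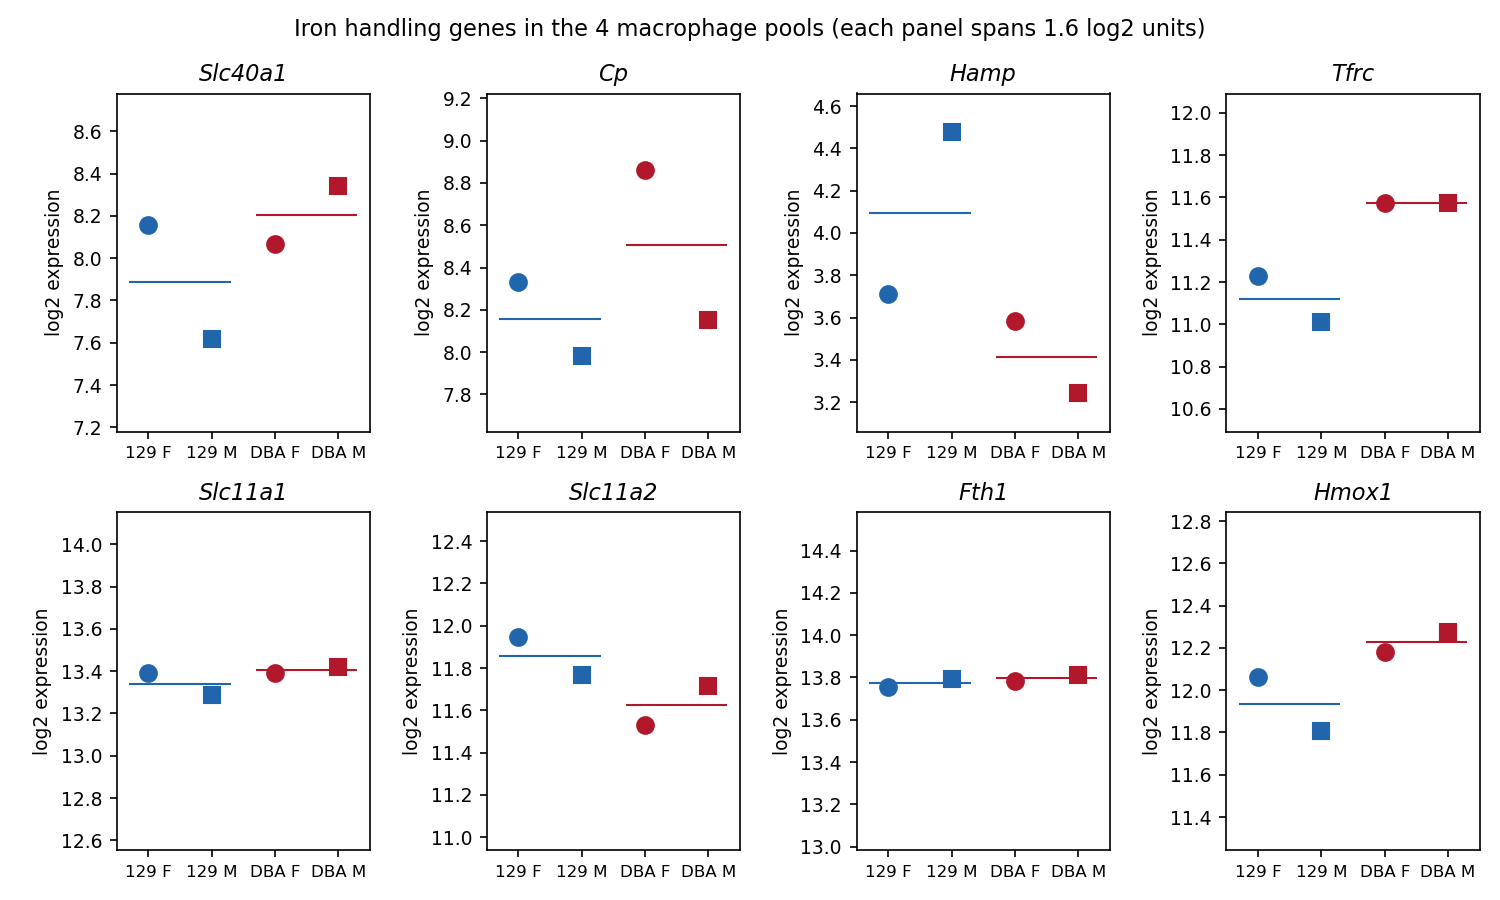
Log2 expression (vertical axis) of the 8 measured iron handling genes in the 129 female (129 F), 129 male (129 M), DBA female (DBA F) and DBA male (DBA M) pools, with 1 point per pool, circles for female, squares for male and a line at each strain's mean. Every panel spans the same number of log2 units around its own gene, and both DBA points lie above both 129 points for Tfrc and Hmox1 and below them for Slc11a2 and Hamp.

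Iron leaves macrophages through ferroportin, the product of Slc40a1 and the known cellular iron exporter of mammals. The log2 value of Slc40a1 was 8.16 in the 129 female pool, 7.62 in the 129 male pool, 8.07 in the DBA female pool and 8.34 in the DBA male pool. The 129 male pool was the lowest and the DBA male pool the highest, while the female pools lay between them, so that the strains overlapped. The mean was 7.89 ± 0.38 (SD, n = 2) in 129 and 8.21 ± 0.19 (SD, n = 2) in DBA. The log2 difference between DBA and 129 was 0.32 (standard error 0.21, adjusted p = 0.590, limma), or a fold of 1.25 with a 95% confidence interval from 0.873 to 1.78. Between the female pools alone it was -0.09 and between the male pools alone it was 0.73. With the 129 female pool left out the difference was 0.59, with the 129 male pool left out it was 0.05, and with the DBA male pool left out it was 0.18.

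Ceruloplasmin, the product of Cp, is a copper enzyme that oxidises exported iron so that transferrin can take it up. The log2 values of Cp were 8.33 in 129 females, 7.98 in 129 males, 8.86 in DBA females and 8.15 in DBA males. The DBA female pool was the highest, and the DBA male pool lay between the 129 pools. The log2 difference was 0.35 (standard error 0.26, adjusted p = 0.630, limma), or 1.27-fold with an interval from 0.822 to 1.98, the widest interval of the genes above background. Without the DBA female pool the difference was -0.0049 (adjusted p = 0.995), without the DBA male pool it was 0.71, and without the 129 male pool it was 0.18. Cp shared its highest pool with B cell markers: of 9 listed, 8 were measured, none passed the adjusted threshold and, at an unadjusted p under 0.05, 6 were higher and 1 was lower in DBA. Their median log2 level was 8.03 in 129 females, 7.91 in 129 males, 9.63 in DBA females and 8.50 in DBA males. Markers of resident peritoneal macrophages, all 8 measured and none past the adjusted threshold, also had their highest median in DBA females, at 11.21 beside 10.95 in 129 females, 10.47 in 129 males and 10.79 in DBA males. At an unadjusted p under 0.05, Alox15 and F5 of that list were higher and Gata6 and Vsig4 were lower in DBA. The part of either list in the level of Cp was not tested.

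Hepcidin, encoded by Hamp, is made mainly by the liver and by macrophages at low levels, and it brings about the breakdown of ferroportin. Hamp had log2 values of 3.71 in 129 females, 4.48 in 129 males, 3.58 in DBA females and 3.24 in DBA males. As these arrays give no detection calls, the reference for background was the level below which 95% of 1394 olfactory and vomeronasal receptor genes lay, a log2 value of 7.17. All 4 pools were below it, so no fold is given for Hamp, although its log2 difference was -0.68 (standard error 0.27, unadjusted p = 0.0462, adjusted p = 0.421, limma). Without the 129 male pool it was -0.30. The other 7 genes lay above this reference in every pool.

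Tfrc encodes the transferrin receptor, through which cells take up iron bound to transferrin, and its message is stabilised by iron regulatory proteins when cell iron is low. The log2 value of Tfrc was 11.23 in the 129 female pool and 11.01 in the 129 male pool, and it was 11.57 in both DBA pools, whose deposited values were equal to the last digit. Both DBA pools were thus above both 129 pools, by 0.34 between the female pools and by 0.56 between the male pools. The log2 difference of 0.45 (standard error 0.12) was the largest among the 7 genes above background, with a fold of 1.37 and an interval from 1.11 to 1.69. Its unadjusted p was 0.0109 and its adjusted p was 0.289 (limma), so it did not pass the threshold over all genes. The standard error rests on the 129 pools and on the spread shared from other genes, since the DBA pools did not vary. Over 11 alternative settings the difference ranged from 0.34 to 0.56 and the adjusted p from 0.211 to 0.807.

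Tfrc is also known as a target of hypoxia-inducible factors. Promoter windows of RefSeq on the mouse build GRCm38.p6, 250 bases before to 50 bases after an annotated start, were found for 6 of the 10 genes, 9 windows in all, and were searched on both strands for 4 short motifs. The stretches below show, for 3 of the genes described here, where a motif lay, with its letters in capitals and the rest in lower case, read 5′ to 3′. They are the reference sequence of C57BL/6J mice and were read from neither 129 nor DBA mice.
Tfrc, chr16:32608882-32608911, plus strand, hypoxia-inducible factor core: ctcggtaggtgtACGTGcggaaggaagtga
Slc11a1, chr1:74375039-74375068, plus strand, purine-rich ETS core: gggtatccaggaGAGGAAcgaaggtcaaaa
Fth1, chr19:9982604-9982633, plus strand, GC box: caggaagaggcgGGGCGGcgcggcccgctg

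The core ACGTG of hypoxia-inducible factor sites started 2 bases before one annotated start of Tfrc and 228 bases before the other, and it was in 2 of the 9 windows, both of Tfrc, beside 19.62% of all 32851 windows in the table. The core GAGGAA, bound by the macrophage factor PU.1, was in 1 of the 9 windows, 152 bases before the start of Slc11a1, and in 28.28% of all windows. The GC box GGGCGG was in windows of Fth1, Ftl1 and Tfrc, 3 of 9, and in 35.66% of all windows, and the one printed for Fth1 began 30 bases before its start. The antioxidant response element TGACNNNGC was in 0 of the 9 windows and in 12.39% of all windows. Each printed stretch marks 1 motif, and a match describes the letters only.

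Slc11a1 and Slc11a2 encode related divalent metal transporters. Slc11a1, also called Nramp1, lies in the phagosome membrane and is known as a locus of resistance to intracellular bacteria, for which both 129 and DBA mice are known to carry the functional allele. Its log2 values were 13.39 in 129 females, 13.29 in 129 males, 13.39 in DBA females and 13.42 in DBA males. The pools overlapped and lay within 0.13 of each other. The log2 difference was 0.07 (standard error 0.11, adjusted p = 0.844, limma), or 1.05-fold with an interval from 0.868 to 1.26.

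Slc11a2, or divalent metal transporter, moves iron out of endosomes after its release from transferrin. It had log2 values of 11.95 in 129 females, 11.77 in 129 males, 11.53 in DBA females and 11.72 in DBA males. Both DBA pools were below both 129 pools, but the male pools of the strains were only 0.05 apart, and the female pools were 0.42 apart. The log2 difference was -0.23 (standard error 0.13, adjusted p = 0.538, limma), a fold of 0.851 with an interval from 0.682 to 1.06. Leaving out either female pool brought it to -0.14. Slc11a2 was thus the only gene above background among the 8 whose pools were separate with DBA lower.

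Fth1, the ferritin heavy chain, oxidises iron and stores it in the ferritin shell, and it was the gene with the least variation among the 8. Its log2 values were 13.75 in 129 females, 13.79 in 129 males, 13.78 in DBA females and 13.81 in DBA males, a range of 0.056 over all pools. The log2 difference was 0.02 (standard error 0.11, adjusted p = 0.947, limma), and its interval, from 0.849-fold to 1.22-fold, was the narrowest of the 8. Values of both Fth1 and Slc11a1 lay close to the upper end of the array scale, whose highest value in these pools was 14.2, so that how far a rise could show there is not known.

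Hmox1, heme oxygenase, opens heme to biliverdin, carbon monoxide and iron, and is induced by heme and oxidative stress. Its log2 values were 12.06 in 129 females, 11.81 in 129 males, 12.18 in DBA females and 12.28 in DBA males. Hmox1 was thus higher in both DBA pools than in either 129 pool, by 0.12 between the female pools and by 0.47 between the male pools. The log2 difference was 0.30 (standard error 0.13, unadjusted p = 0.0668, adjusted p = 0.466, limma), or 1.23-fold with an interval from 0.980 to 1.54, and it was 0.17 without the 129 male pool.

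**Figure D2:**
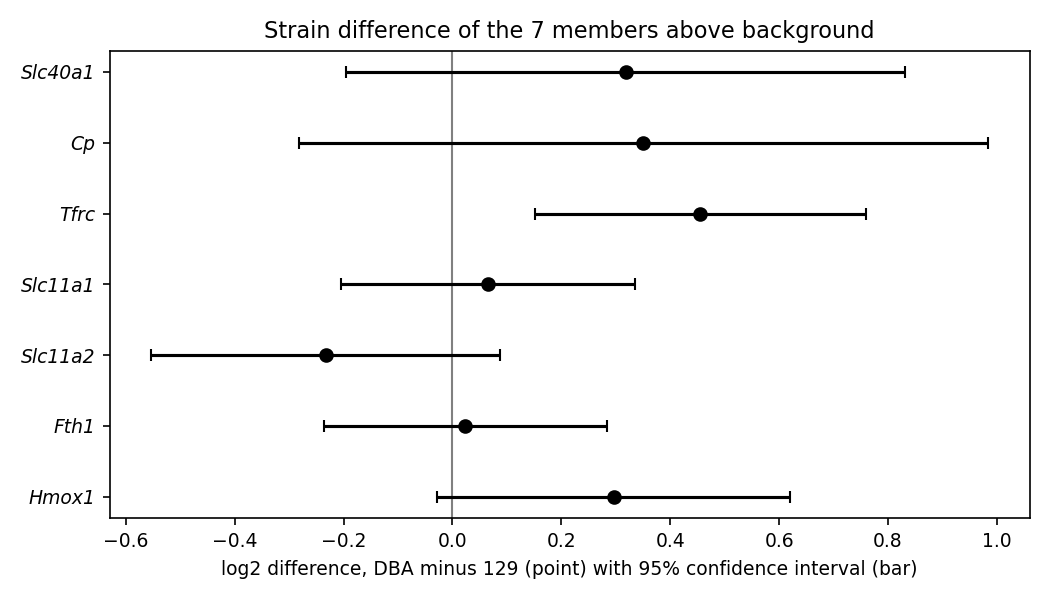
Log2 difference between DBA and 129 (horizontal axis, DBA minus 129) for the 7 iron handling genes above background, with a point for the limma estimate and a bar for its 95% confidence interval. The bars of 6 genes cross 0 and that of Tfrc, from 0.15 to 0.76, does not, and these intervals are not adjusted for the number of genes.

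The plot of strain differences shows how much these arrays could resolve. All 7 genes above background had a mean difference under 1.5-fold, as had 95.2% of the 13378 genes whose mean was above background. The intervals of Slc40a1 and Cp reached 1.78-fold and 1.98-fold, and that of Slc11a2 stayed within 1.5-fold in either direction. Fth1 and Slc11a1 had narrow intervals, with values near the top of the scale, and nothing is read from them. A missed threshold does not show that any of these genes was equal in the strains.

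Female and male pools were compared with limma with strain in the model. At an adjusted p under 0.05, 0 of the 8 iron handling genes differed between the sexes, where 4 of all genes (0.018%) did. At an unadjusted p under 0.05 only Cp differed, 1 of 8 genes, beside 1.73% of all genes. The male pool was lower than the female pool for Cp by 0.35 in 129 and by 0.71 in DBA, and the fitted log2 difference of male minus female was -0.53 (standard error 0.16, unadjusted p = 0.0203, adjusted p = 1, limma) with an interval from -0.94 to -0.12. In 129, 6 of the 8 genes were higher in the female pool, as were 60.2% of all genes, and the exceptions were Fth1 and Hamp. In DBA, 2 of the 8 genes were higher in the female pool, as were 41.8% of all genes, and these were Cp and Hamp. Tfrc was equal in the DBA pools. For Slc40a1 the male pool was 0.54 below the female pool in 129 and 0.27 above it in DBA, and for Slc11a2 it was 0.18 below in 129 and 0.19 above in DBA. With 1 pool of each strain and sex, whether sex differences depended on the strain could not be tested.

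**Figure D3:**
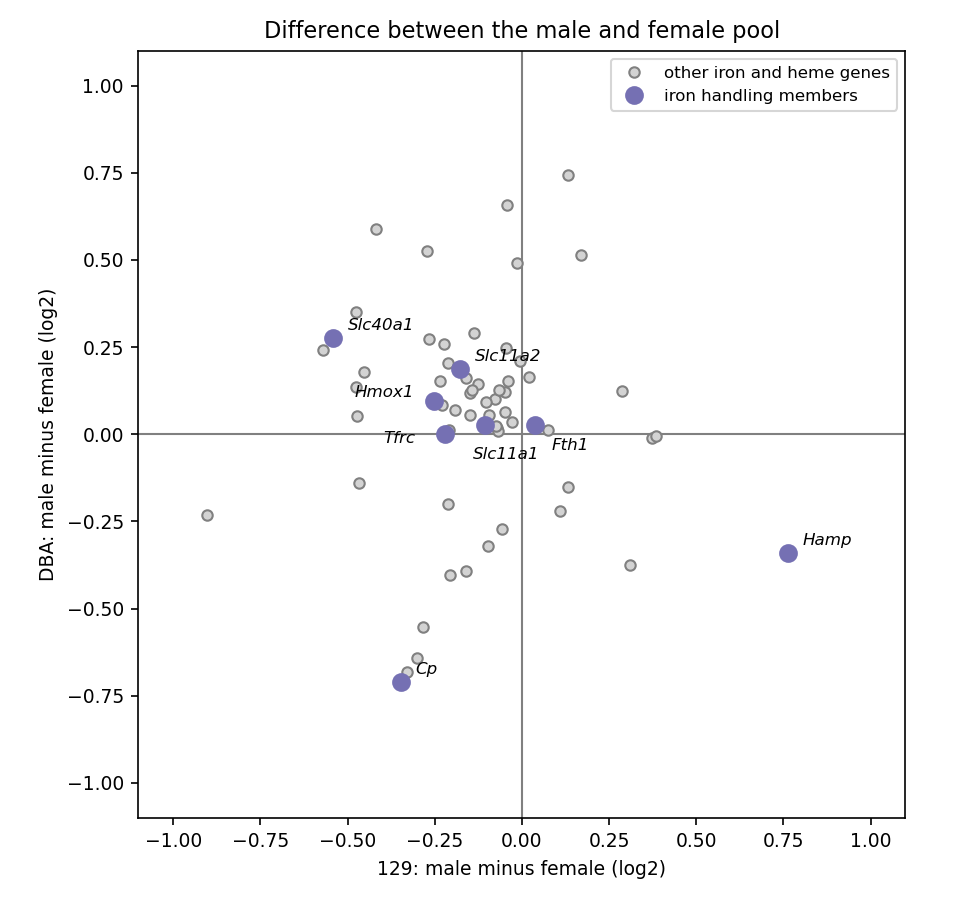
Male minus female log2 difference in DBA (vertical axis) against the same in 129 (horizontal axis), 1 pool of each sex per strain, for the 8 iron handling genes (large points) and 56 other iron and heme genes (small points). Cp lies at -0.35 in 129 and -0.71 in DBA. The female pool was the higher one for 46 of the 56 other genes (82.1%) in 129 and for 15 of them (26.8%) in DBA. These shares were 60.2% and 41.8% over all genes, and 67.1% and 35.3% over the genes with a mean above background.

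Beyond these genes, 57 other genes of iron and heme handling were listed for their role, of which 56 were measured. This list was made with earlier results of these data known. At an adjusted p under 0.05, 0 of the 56 differed between the strains (limma). At an unadjusted p under 0.05, 7 were higher and 3 were lower in DBA, beside 1428 higher and 1126 lower (11.5%) of all 22180 genes. The pools did not overlap in 27 of the 56, with DBA higher in 18 and lower in 9, a share of 48.2% beside 44.4% of all genes. The median log2 difference was 0.07, and 6 of the 56 lay below background in all pools. Between the sexes 0 of the 56 differed at an adjusted p under 0.05, and 4 were higher in female pools at an unadjusted p under 0.05, as were 267 of all 22180 genes.

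Among 20 genes of iron uptake, transport and storage, the median log2 difference was -0.01, and 2 genes were lower in DBA and 0 higher at an unadjusted p under 0.05, a threshold that 11.5% of all genes passed. Slc25a37, mitoferrin, carries iron into mitochondria, and its log2 values were 11.64 in 129 females, 11.75 in 129 males, 11.35 in DBA females and 11.13 in DBA males. They were lower in both DBA pools, with a difference of -0.46 (standard error 0.13, adjusted p = 0.298, limma), a fold of 0.729 with an interval from 0.586 to 0.907. Steap4, a metalloreductase that reduces iron for transport, had log2 values of 9.36 and 8.78 in 129 and 8.36 and 8.61 in DBA, in the order female, male. Its difference was -0.59 (standard error 0.21, adjusted p = 0.383, limma), and it was -0.30 with the 129 female pool left out. The ferritin autophagy receptor Ncoa4, named for its role after its values were seen, had a difference of 0.14 (adjusted p = 0.703).

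Among 21 listed genes of heme handling, 20 were measured, with a median log2 difference of 0.15, and 3 were higher and 0 lower in DBA at an unadjusted p under 0.05 (11.5% of all genes in either direction). Haptoglobin (Hp), which binds free hemoglobin, had log2 values of 11.60 in 129 females, 10.70 in 129 males, 12.47 in DBA females and 12.24 in DBA males. Hp was higher in both DBA pools, by a log2 difference of 1.21 (standard error 0.29, unadjusted p = 0.0069, adjusted p = 0.245, limma), or 2.31-fold with an interval from 1.40 to 3.83, the largest difference among the 56 genes. Without the 129 male pool the difference was 0.76. Over its 11 alternatives the adjusted p lay between 0.0877 and 0.567. Cd163, the scavenger receptor for haptoglobin bound to hemoglobin, had values of 6.89 and 6.61 in 129 and 7.71 and 7.15 in DBA, of which 3 were below background, and its difference was 0.68 (standard error 0.21, adjusted p = 0.330), or 0.40 without the DBA female pool. Blvrb, a biliverdin reductase that acts downstream of Hmox1, had values of 10.75 and 10.50 in 129 and 10.99 and 11.08 in DBA. Its difference was 0.40 (standard error 0.13, adjusted p = 0.345), or 1.32-fold. Slc48a1, which moves heme out of the phagolysosome and was named for that role after its values were seen, had a difference of 0.18 (adjusted p = 0.572).

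Among 16 regulators of iron and heme genes the median log2 difference was 0.13, and 4 were higher and 1 was lower in DBA at the same unadjusted threshold (11.5% of all genes). Spic, a transcription factor of iron-recycling macrophages, had log2 values of 6.85 in 129 females, 6.76 in 129 males (both below background), 7.59 in DBA females and 7.27 in DBA males. Its difference was 0.63 (standard error 0.14, unadjusted p = 0.0052, adjusted p = 0.221, limma), the smallest p of the 56 genes. Neo1, a co-receptor of hepcidin regulation in the liver, had values of 10.42 and 10.20 in 129 and 9.66 and 9.92 in DBA, with a difference of -0.52 (standard error 0.15, adjusted p = 0.297). Hfe, the hemochromatosis protein that binds the transferrin receptor, had values of 8.93 and 8.63 in 129 and 9.75 and 9.11 in DBA, with a difference of 0.65 (standard error 0.23, adjusted p = 0.380) that was 0.33 without the DBA female pool.

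The iron regulatory proteins and the ligase that degrades one of them were read together with their target messages Tfrc, Fth1 and Slc40a1. Fbxl5, an iron-sensing ligase subunit that targets the iron regulatory protein Ireb2, had log2 values of 9.93 in 129 females, 9.85 in 129 males, 10.17 in DBA females and 10.28 in DBA males, with a difference of 0.34 (standard error 0.11, adjusted p = 0.350, limma). Ireb2, named after its values were seen, had values of 10.41 and 10.37 in 129 and 10.64 and 10.70 in DBA, with a difference of 0.28 (standard error 0.11, adjusted p = 0.410). For the other iron regulatory protein, Aco1, also named after its values were seen, the values were 11.49 and 11.29 in 129 and 11.50 and 11.52 in DBA, and the difference was 0.12 (adjusted p = 0.722). Both DBA pools were thus higher for Fbxl5, Ireb2 and Aco1, and by less than for Tfrc. They were so in 23% of all genes, and in 3961 of the 13378 genes with a mean above background. Of the other target messages, Fth1 had a difference of 0.02 and Slc40a1 of 0.32, and for both the pools of the strains overlapped. For Aco1 the DBA female pool, at 11.50, was barely above the 129 female pool, at 11.49. None of Fbxl5, Ireb2 and Aco1 passed the threshold over all genes, and a link between them and Tfrc was not tested.

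**Figure D4:**
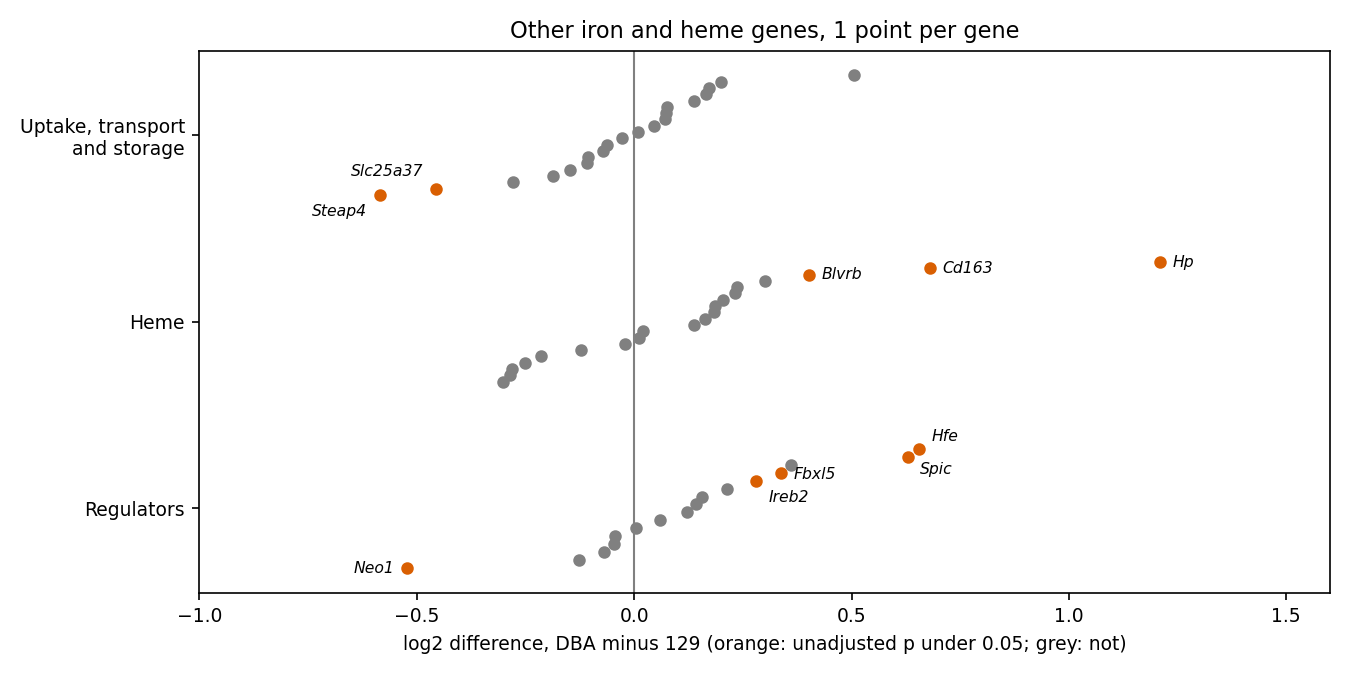
Log2 difference between DBA and 129 (horizontal axis) for 56 other iron and heme genes in 3 lists (vertical axis), 1 point per gene, in orange where the unadjusted p was under 0.05. Haptoglobin (Hp), at 1.21, lies farthest from 0, and no point passed the adjusted threshold over all genes.

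The arrays resembled each other, with correlations across genes from 0.985 to 0.993 and median log2 values from 7.65 to 7.70 over all genes. Over the 13378 genes with a mean above background, the median was 9.24 in 129 females and 9.11 in 129 males. It was 9.24 in DBA females and 9.34 in DBA males, so the male pools were further apart than the female pools. The part of this shift in the male differences of single genes was not tested. Quantile normalization, which gives all pools the same distribution of values, was run as an alternative for the strain difference. The log2 difference was then 0.36 for Tfrc (0.45 as reported), 0.22 for Hmox1 (0.30) and -0.31 for Slc11a2 (-0.23). It was 0.31 for Slc40a1 (0.32), 0.33 for Cp (0.35), 0.07 for Slc11a1 (0.07) and 0.05 for Fth1 (0.02). Xist and Uty matched the labelled sexes. Of 10 macrophage markers all 10 were measured and 0 passed the adjusted threshold (limma), with pool medians from 12.52 to 12.67. At an unadjusted p under 0.05, 4 were higher and 1 was lower in DBA, beside 11.5% of all genes. The pools did not overlap in 9 of the 10, with DBA higher in 7 and lower in 2, beside 44.4% of all genes. The log2 differences of these markers ran from -0.30 to 0.97. Erythroid genes, which matter here since young red cells hold much heme and transferrin receptor, were measured for 4 of 13 listed genes, of which 3 were below background in all pools, with pool medians of 6.62 and 6.76 in 129 and 6.56 and 6.49 in DBA. Of the mast cell markers 1 of 4 passed, Mcpt4, with a log2 difference of 1.80 (adjusted p = 0.0245, limma) and both 129 pools below background. Mcpt4 did not pass with every probe set tested (adjusted p = 0.239), without the 129 female pool (0.128) or without the 129 male pool (0.162). Of 9 fibroblast and mesothelial markers 4 (Col1a1, Col1a2, Col3a1 and Dcn) were lower and 0 higher in DBA at an unadjusted p under 0.05 (11.5% of all genes). The mesothelial marker Upk3b was higher in both DBA pools, by a log2 difference of 0.61, and the pools overlapped for the other 4. Of 10 neutrophil markers, 6 of them below background in all pools, 3 were higher and 0 lower in DBA at that unadjusted threshold. Of 7 measured T and NK cell markers 1 was higher and 1 lower, and of 4 eosinophil markers 0 were higher and 1 was lower. In these 3 lists 0 genes passed the adjusted threshold. In such bulk RNA fewer cells of a type and less RNA per cell cannot be told apart, and the part of other cell types in the iron gene values was not tested.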

How the data were processed

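The authors processed the 4 arrays (Mouse Gene ST type) with Affymetrix Expression Console into the deposited log2 values, from 1.71 to 14.2. The sources used here do not state its version, summarisation, background correction or normalization. Such steps set the scale on which small differences are read.

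Of 41345 probe sets, 23521 carried 1 gene symbol and 23328 were matched by gene ID to the RefSeq gene table for current symbols. Of several probe sets of a gene the one with the highest mean was kept, and no value was filtered or rescaled. Tests used R 4.3.3 and limma 3.58.1 (lmFit, eBayes) across all 22180 genes, with strain alone (2 residual degrees of freedom, prior 3.73) or sex with strain (1, prior 4.34), and Benjamini-Hochberg adjustment over all genes. Replicates of a strain are its female and male pool, so their spread holds any sex difference. The number of arrays limits the precision. Iron genes and marker lists were chosen with earlier results of these data known. Of each list of other iron genes, up to 4 with the smallest unadjusted p under 0.05 were named, and those outside this rule are marked as such. Alternatives to the model were a block for sex, a robust, trended prior, and sex fitted alone. Alternatives to the values were a common median, quantile normalization, no dim genes, averaged probe sets, all probe sets tested separately, and leaving out each pool in turn.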

Additional observations from a re-analysis of the deposited data

Results flagged for a closer look

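In 2 of the 8 iron handling genes the difference between DBA and 129 had opposite signs in female and male pools, as it had in 10180 of all 22180 genes, a larger share. For Slc40a1 it was -0.09 between the female pools and 0.73 between the male pools on the log2 scale, so that the male difference exceeded the female one by 0.82. For Slc11a1 it was -0.0007 between the female pools and 0.13 between the male pools, which are 0.13 apart. Each difference rests on 1 pool of each strain, and neither the difference between the sexes nor its cause was tested.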

How the results depend on the processing

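None of the 8 iron handling genes passed the adjusted threshold in limma under any of 11 alternatives for strain or 5 for sex, beside 2 genes for strain (Tfrc, Hamp) and 1 for sex (Cp) at an unadjusted p under 0.05 in the fit as reported. Hamp could not be read where dim genes were left out. Of 87 member values under the strain alternatives 86 kept their direction and side of the threshold, and of 39 under the sex alternatives all 39 did. Part of this was fixed in advance, since several alternatives leave a member's log2 difference as reported and alter only its p-value. For strain these were the sex block, the other prior, no dim genes, averaged probe sets and all probe sets. For sex they were sex fitted alone, the other prior and no dim genes. The exception was Cp, with a log2 difference of -0.0049 without the DBA female pool, and with single pools left out its difference ranged from -0.0049 to 0.71. The cause was not tested. Where 1 pool was left out, the lone pool of its strain was assumed to vary like the other strain. The genes that differed between strains over all genes, 83 as reported, numbered 47 with sex as a block, 129 with a trended and robust prior, 0 with every probe set tested (limma, lowest adjusted p 0.0931, with 3471 of 41345 at an unadjusted p under 0.05), and, with 1 pool left out, 16 (129 females), 6 (129 males), 135 (DBA females) and 186 (DBA males). The replicate numbers only name pools of a strain. The pools pair by sex alone, which the fit with sex as a block uses, and there Tfrc had an adjusted p of 0.534.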
